A study of Homo sapiens with 6 samples.

Results

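The genes described here are 33 human genes of protein folding in the endoplasmic reticulum (ER) and of the unfolded protein response, taken as a named list from the 58288 gene identifiers of the count table. All 33 were measured in 6 RNA-seq libraries of T24 cells, an established human bladder cancer line. The cells had been transfected with 1 of 3 siRNAs. NC was the control siRNA, and si-circ235-1 and si-circ235-2 were both directed at the looping site of circ235, the circular RNA hsa_circ_0000235 made from CCNY pre-mRNA. Each siRNA had 2 libraries, which the labels call biological replicates, and the labels give no genotype, drug or time point that sets them further apart. The transfection was transient and was made in 1 cell line, without an untransfected group in the data used here. RNA was selected by its poly(A) tail, which a circular RNA lacks, so circ235 has no value in these counts and the knockdown could not be checked in them. By qRT-PCR in T24 and UMUC3 cells, the study that made the data reported a higher knockdown efficiency for si-circ235-1 than for its other siRNA. Both siRNAs were compared with the same NC libraries, and the 2 comparisons are therefore not independent of each other. The labels name no agent that provokes ER stress.

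The unfolded protein response matches the folding capacity of the ER to the load of new secretory and membrane proteins. Its sensors sit in the ER membrane and are held in check by the HSP70 chaperone BiP (HSPA5) until unfolded proteins draw it away. IRE1 (ERN1) then splices XBP1 mRNA, PERK (EIF2AK3) phosphorylates eIF2α and slows translation while ATF4 is made, and ATF6 travels to the Golgi, where the proteases S1P (MBTPS1) and S2P release its transcription factor domain. XBP1 and ATF6 raise the transcription of chaperones, of the enzymes that form disulfide bonds, and of the machinery that extracts misfolded proteins for destruction by the proteasome. Gene counts measure the amount of mRNA only. They show neither XBP1 splicing, nor the phosphorylation of the sensors, nor the cleavage of ATF6.

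The promoters of these genes were searched for an exact form of the ER stress response element, a sequence through which ATF6 and XBP1 act. It was searched as CCAAT, 9 bases of any kind and CCACG, on both strands of the RefSeq promoters of GRCh38.p14, from 250 bases before to 50 bases after each start. A promoter was given for 30 of the 33 genes, all but DERL1, PDIA3 and SEC24D. The element was present in 7 of the 30 (23.3%), HSPA5, HSP90B1, CALR, CANX, CRELD2, PDIA6 and XBP1, and in 25 of all 27305 genes of the promoter table (0.0916%), a gene counting when any of its promoters held it. CCAAT alone was in 25 of the 30 (83.3%) and in 39.7% of all genes, and CCACG alone in 24 of the 30 (80%) and in 42.1%. These words overlap the full element by construction. The 8 matches are printed 5′ to 3′ on the strand that reads CCAAT first, with the CCAAT and CCACG of the element in capitals.
HSPA5: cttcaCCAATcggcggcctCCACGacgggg
HSP90B1: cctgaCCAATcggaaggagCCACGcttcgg
HSP90B1: acccaCCAATcgcgccgcaCCACGcaccca
CALR: accgaCCAATgatggtcgaCCACGcgtggg
CANX: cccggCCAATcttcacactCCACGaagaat
CRELD2: atggcCCAATccgagttcgCCACGagaggt
PDIA6: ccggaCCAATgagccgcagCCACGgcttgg
XBP1: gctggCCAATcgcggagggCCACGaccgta
The HSPA5 match lies at chr9:125241385-125241414 on the minus strand, 66 bases before the start counted from its first base, and that of XBP1 at chr22:28800597-28800626 on the same strand, 52 bases before. HSP90B1 holds a match on each strand, at chr12:103930211-103930240 and chr12:103930315-103930344. The CANX match is at chr5:179698773-179698802 on the plus strand. Those of CALR (chr19:12938378-12938407) and CRELD2 (chr22:49918548-49918577) read on the strand opposite to the gene, and that of PDIA6 (chr2:10812847-10812876) on the minus strand, which is that of the gene. A match of letters does not show that a factor binds there. A promoter without a match may hold other forms of the element, which were not searched.

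The libraries held 15373992 to 19912893 counts, and the counts of the 33 genes made up 0.377% and 0.457% of the reads in NC, 0.490% and 0.431% under si-circ235-1, and 0.556% and 0.575% under si-circ235-2. The least counted of them, EIF2AK3, had 50 to 267 reads in a library. Levels are given as CPM, counts per 1000000 counts of a library, scaled by TMM, a factor for each library that sets most genes equal between libraries. The TMM factors were 0.890 to 1.03 in NC and si-circ235-1 and 1.10 and 1.19 under si-circ235-2, where 20271 and 21310 genes had counts, against 18021 to 19777 in the other libraries. All cultures had the epithelial keratins KRT8, KRT18 and KRT7 at 619 to 2307 CPM. The urothelial markers UPK1A, UPK1B, UPK2 and UPK3A and the epithelial CDH1 and KRT19 were under 1 CPM in every library. Urothelial GATA3 averaged under 1 CPM in each condition. PPARG, also counted with the urothelial markers, was at 22.6 to 51.1 CPM over the libraries. Epithelial EPCAM was at 1.28 to 2.93 CPM, and leukocyte PTPRC and CD3E were at 0. Of 20 such marker genes, 10 passed the filter on low counts. Among these the nuclear receptor PPARG was called higher under both siRNAs, and under si-circ235-2 FN1 (30.7 to 118 CPM over the libraries) and CDH2 were higher and KRT7 lower, at −0.76 on the log2 scale (edgeR adjusted p = 0.0260). Between the siRNAs FN1 and CDH2 were higher under si-circ235-2, and VIM (499 to 1499 CPM) and KRT18 were lower there, KRT18 by 2.14-fold (edgeR adjusted p = 0.00799). The part of these markers in the results was not tested. In bulk RNA, fewer cells that express a gene and less of its mRNA per cell cannot be told apart.

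Per kilobase of the longest annotated transcript, the abundant ER genes of NC cells were SEC61B, a subunit of the translocation channel, at 212 CPM per kb, the chaperones HSP90B1 and HSPA5 at 169 and 167, SDF2L1 at 138 and the disulfide isomerase P4HB at 120.0. At the other end stood the membrane-bound signal proteins, EIF2AK3 at 1.07, ERN1 at 1.17 and CREB3L2 at 1.94 CPM per kb. ERN1 and EIF2AK3 were thus measured from far fewer reads than the abundant chaperones.

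Each siRNA was compared with NC by edgeR's quasi-likelihood test on the counts, and a gene is called when its Benjamini-Hochberg adjusted p over all 14415 tested genes was under 0.05. All 33 ER genes passed the filter on low counts. Under si-circ235-1, 3 of the 33 (9.09%) rose, HERPUD1, DNAJC3 and DERL2, and 0 fell (3 were lower at an unadjusted p under 0.05, and DESeq2 called 1 lower), beside 5.88% of all tested genes called, 2.24% higher and 3.64% lower. Under si-circ235-2, 13 of the 33 (39.4%) were called, 8 higher and 5 lower, beside 31.4% of all genes, 15.7% in each direction. The genes that rose were ERN1, EIF2AK3, ATF6, MBTPS1, CREB3L2, EDEM1, SEL1L and CANX, and those that fell were HSP90B1, SDF2L1, CRELD2, SEC61B and SSR1. The median log2 fold change of the 33 was 0.19 under si-circ235-1 and 0.26 under si-circ235-2, and that of all tested genes was −0.03 and 0.00.

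**Figure D1:**
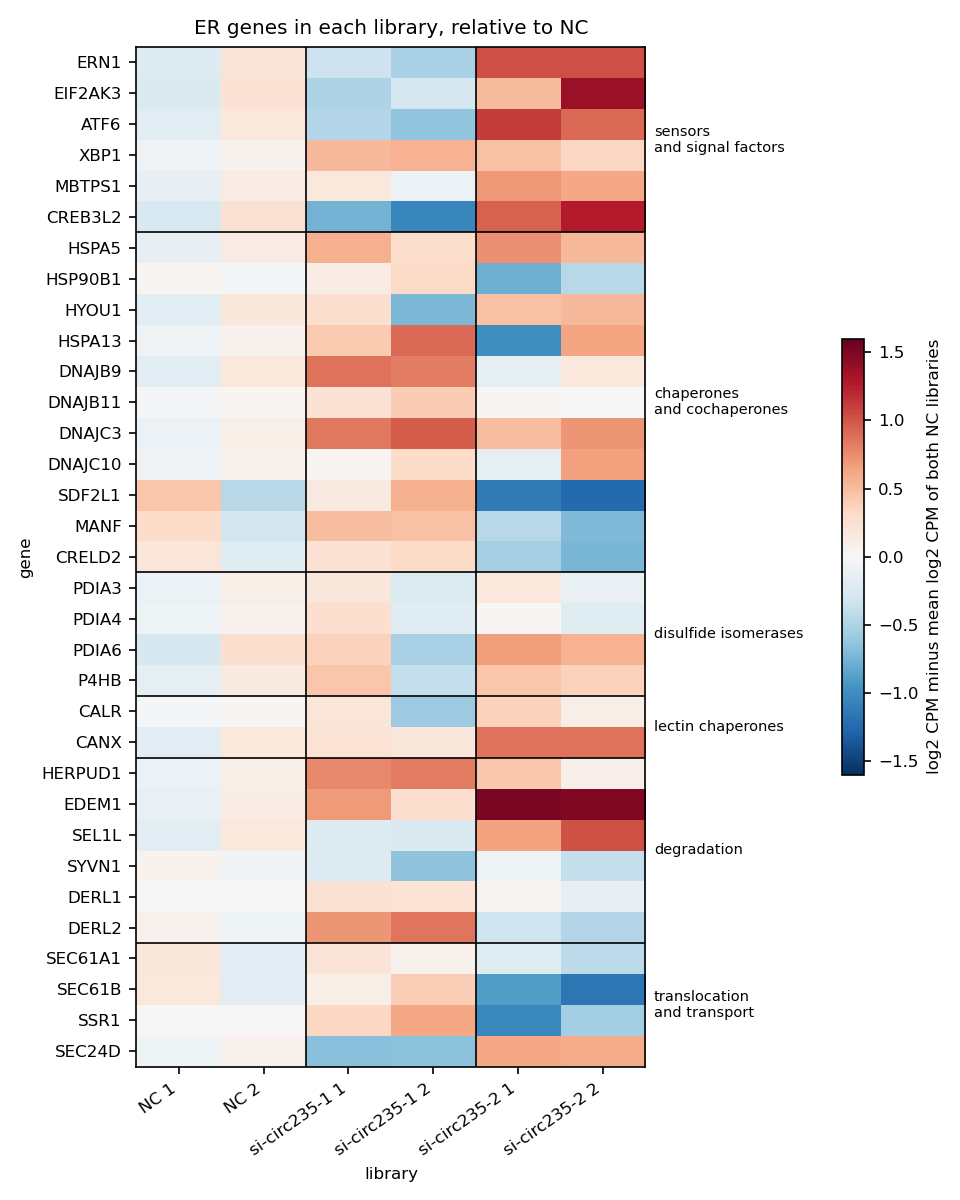
Colour shows the log2 CPM of each of the 33 ER genes (rows, grouped by role) in the 6 libraries (columns), relative to the mean of the gene in NC. All 6 sensors and signal factors are above NC in both si-circ235-2 libraries, where SDF2L1, SEC61B and SSR1 are below it, and HERPUD1, DNAJC3 and DERL2 are above NC in both si-circ235-1 libraries.

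Without a test, both si-circ235-1 libraries lay above both NC libraries for 15 of the 33 genes (26.2% of all tested genes did so) and below them for 7 (28.8% of all). Both si-circ235-2 libraries lay above NC for 16 (36.4% of all) and below for 9 (35% of all). The calls depended on single libraries. Without NC replicate 1, the count under si-circ235-2 was 1 of 33, EDEM1, and 5.1% of all genes were called, while leaving out any other library gave 9 to 12. Under si-circ235-1 the count was 0 without either NC library or either si-circ235-1 library, and 5 or 6 on dropping the first or second si-circ235-2 library, which enters only the estimate of the spread. At least 1 of the 14 alternative settings called 5 further ER genes under si-circ235-1, CREB3L2, DNAJB9, HSPA13, SEC24D and XBP1, and 10 under si-circ235-2, DERL1, DNAJC3, HSPA13, HSPA5, MANF, P4HB, PDIA6, SEC24D, SEC61A1 and XBP1. With 2 libraries per siRNA, the p-values measure the spread between these libraries.

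Under si-circ235-2 the log2 fold change of a gene went with the length of its transcript. Over 14386 genes Spearman's rho across genes was 0.442, and over the 33 ER genes 0.528. Genes share libraries, so rho is given as a description. Among the 4798 shortest genes (62 to 2456 nucleotides) 3.33% were called higher and 29.9% lower, and among the 4795 longest (4425 to 205012 nucleotides) 31.5% were higher and 4.36% lower. The ER genes in these length classes had medians of −0.60 (5 genes) and 0.72 (12 genes). Under si-circ235-1 rho was 0.041 over all genes and −0.282 over the ER genes. With GC content, rho was −0.217 over all genes under si-circ235-2 and −0.258 under si-circ235-1. Among the 4795 genes of highest GC content (53.7% to 74.5%), 7.34% were called higher and 29.5% lower under si-circ235-2. An alternative fit, called length-corrected here, took a smooth trend of length and GC content out of each library, and its value stands beside that of each ER gene called under si-circ235-2. In it, 10 of the 33 were called under si-circ235-2, 4 higher and 6 lower, of which 6 were among the 13, and 7 under si-circ235-1, 5 higher and 2 lower. When library totals alone set the scale, the median of all genes under si-circ235-2 was 0.25, and 12 ER genes were called higher and 2 lower. The shares of all tested genes called in these alternative fits are not given here, so the counts say nothing particular to the ER genes.

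**Figure D2:**
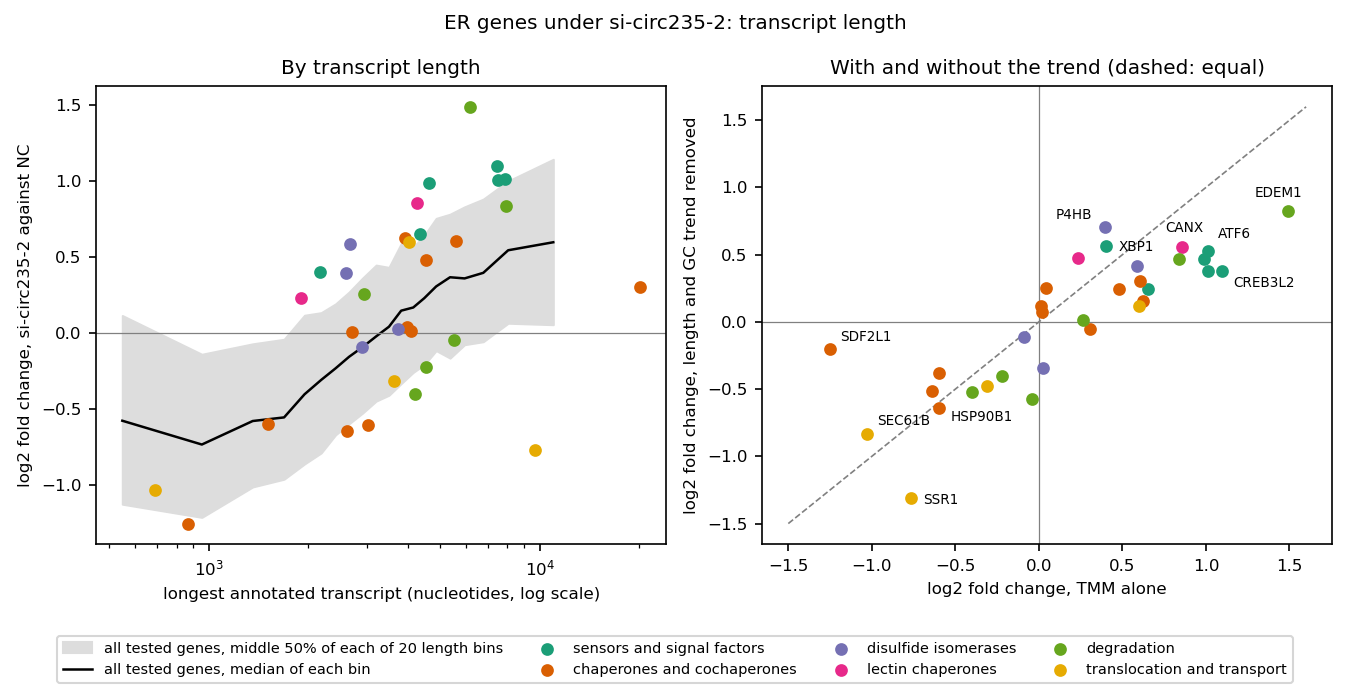
Left, log2 fold change of the 33 ER genes (points, coloured by role) under si-circ235-2 against NC by length of the longest annotated transcript (log scale), with the median (line) and middle 50% (band) of all tested genes in 20 length bins. Right, the same fold changes with TMM alone (x axis) and in the length-corrected fit (y axis). The median of all genes rises with length, most sensors and signal factors lie at long transcripts and come nearer to 0 in the length-corrected fit, while SSR1 moves to −1.31.

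Of the 6 sensors and signal factors, 5 (83.3%) rose under si-circ235-2 (median log2 fold change 1.00). Beside them, 15.7% of all tested genes and 31.5% of the 4795 longest were called higher. Under si-circ235-1, 0 of the 6 were called (median −0.41), beside 5.88% of all tested genes. There 3 passed an unadjusted p under 0.05, XBP1 above NC and ATF6 and CREB3L2 below, and DESeq2 called 2. ERN1, the IRE1 sensor (chr17:64039142-64130819, minus strand), stood at 7.94 and 10.5 CPM in NC, 7.27 and 6.36 under si-circ235-1, and 18.7 and 18.6 under si-circ235-2. Both si-circ235-2 libraries were above both NC libraries and both si-circ235-1 libraries were below them. ERN1 rose 2.02-fold under si-circ235-2, a log2 fold change of 1.01 (standard error 0.25, edgeR adjusted p = 0.0115), and si-circ235-1 gave −0.44 (standard error 0.25, edgeR adjusted p = 0.308). ATF6 (chr1:161766294-161964070, plus strand), the sensor cleaved in the Golgi, measured 30.5 and 38.4 CPM in NC, 24.8 and 22.0 under si-circ235-1, and 74.6 and 64.2 under si-circ235-2. The same order of the libraries held, with si-circ235-2 above and si-circ235-1 below NC without overlap. Under si-circ235-2 ATF6 rose by 1.01 (standard error 0.20, edgeR adjusted p = 0.00528) on the log2 scale, and si-circ235-1 gave −0.56 (standard error 0.20, edgeR adjusted p = 0.121). EIF2AK3, the PERK sensor (chr2:88556741-88627576, minus strand), was the least abundant, with 4.20 and 5.75 CPM in NC, 3.50 and 4.07 under si-circ235-1, and 6.96 and 12.8 under si-circ235-2. The si-circ235-2 libraries were both above NC but far apart, and EIF2AK3 rose by 0.99 (standard error 0.34, edgeR adjusted p = 0.0447) on the log2 scale, against −0.39 (standard error 0.35, edgeR adjusted p = 0.527) under si-circ235-1. Neither DESeq2 nor the fit of 2 conditions alone called EIF2AK3 under si-circ235-2, and 9 of the 14 alternative settings lost its call.

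CREB3L2, a membrane-bound transcription factor of the ATF6 type that acts on secretory genes, measured 12.0 and 16.8 CPM in NC, 8.39 and 6.87 under si-circ235-1, and 27.4 and 34.3 under si-circ235-2. Its libraries were ordered as those of ATF6, and it rose by 1.10 (standard error 0.26, edgeR adjusted p = 0.00946) under si-circ235-2 with a log2 fold change of −0.92 (standard error 0.26, edgeR adjusted p = 0.0640) under si-circ235-1. MBTPS1, the S1P protease that cuts ATF6, was at 108 and 129 CPM in NC, 133 and 111 under si-circ235-1, and 192 and 182 under si-circ235-2. It rose by 0.65 on the log2 scale (standard error 0.19, edgeR adjusted p = 0.0227) under si-circ235-2, while the si-circ235-1 libraries overlapped NC, with 0.04 (standard error 0.19, edgeR adjusted p = 0.929). XBP1 (chr22:28794555-28800597, minus strand), whose mRNA is the substrate of IRE1 and whose gene is a target of ATF6, had 98.9 and 106 CPM in NC, 147 and 151 under si-circ235-1, and 143 and 129 under si-circ235-2. All libraries of the circ235 siRNAs were above both NC libraries, by 1.45-fold and 1.32-fold, but neither difference passed the test, with log2 fold changes of 0.54 (standard error 0.17, edgeR adjusted p = 0.0860) and 0.40 (standard error 0.17, edgeR adjusted p = 0.0961).

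The transcripts of the 5 sensors and signal factors that rose have 7876 nucleotides for ERN1, 7496 for ATF6, 7412 for CREB3L2, 4646 for EIF2AK3 and 4338 for MBTPS1, against 2173 for XBP1. In the length-corrected fit the 5 were not called under si-circ235-2 (the sixth, XBP1, was). The log2 fold change was then 0.38 (edgeR adjusted p = 0.174) for ERN1, 0.53 (edgeR adjusted p = 0.0912) for ATF6 and 0.47 (edgeR adjusted p = 0.292) for EIF2AK3. It was 0.38 on the log2 scale (edgeR adjusted p = 0.170) for CREB3L2 and 0.24 (edgeR adjusted p = 0.172) for MBTPS1. XBP1 was called higher there, at 0.56 on the log2 scale (edgeR adjusted p = 0.0177) under si-circ235-2 and 0.47 (edgeR adjusted p = 0.0496) under si-circ235-1, where CREB3L2 was called lower at −0.92 (edgeR adjusted p = 0.0208). Whether transcript length or GC content had a part in the rise of these 5 genes under si-circ235-2 was not tested further. Without NC replicate 1 the edgeR adjusted p under si-circ235-2 was 0.126 for ERN1, 0.0706 for ATF6, 0.275 for EIF2AK3, 0.117 for CREB3L2 and 0.172 for MBTPS1. For EIF2AK3 it was 0.0518 with NC replicate 2 left out, 0.0635 and 0.0627 after dropping the first or second si-circ235-1 library and 0.408 after dropping si-circ235-2 replicate 2. For MBTPS1 it was 0.0929 and 0.0625 on dropping the first or second si-circ235-2 library.

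**Figure D3:**
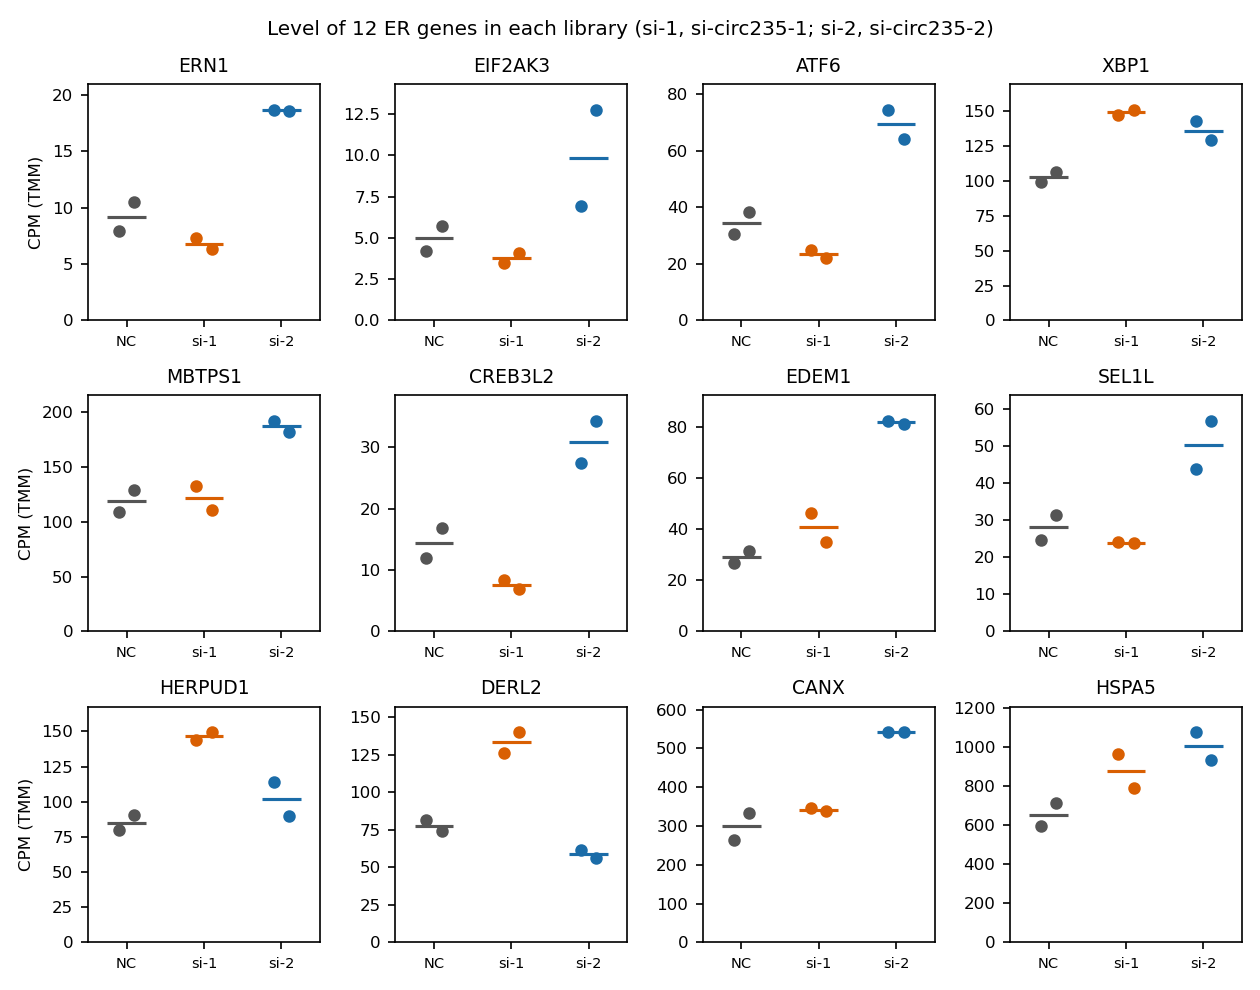
TMM-scaled CPM (linear axis from 0) of 12 ER genes in each library (points) of NC, si-circ235-1 (si-1) and si-circ235-2 (si-2), with the mean of the 2 libraries as a line. ERN1, ATF6 and CREB3L2 are above NC under si-circ235-2 and below it under si-circ235-1, DERL2 has the opposite order, and HSPA5 and XBP1 are above NC under both.

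Among the 11 chaperones and cochaperones of the HSP70 and HSP90 cycle, 1 rose under si-circ235-1 and 3 fell under si-circ235-2. Those shares were 9.09% and 27.3%, beside 2.24% of all tested genes called higher under si-circ235-1 and 15.7% lower under si-circ235-2. HSPA5, or BiP (chr9:125234853-125241330, minus strand), the HSP70 of the ER lumen, measured 595 and 712 CPM in NC, 966 and 789.6 under si-circ235-1, and 1080.0 and 937 under si-circ235-2. All libraries of both circ235 siRNAs lay above both NC libraries, yet the log2 fold changes of 0.42 (standard error 0.22, edgeR adjusted p = 0.254) under si-circ235-1 and 0.62 (standard error 0.22, edgeR adjusted p = 0.0506) under si-circ235-2 did not pass the test. HSPA5 was called higher under si-circ235-2 by DESeq2, at 0.61 on the log2 scale (DESeq2 adjusted p = 0.0131), with no filter on low counts (edgeR adjusted p = 0.0452) and on library totals alone, at 0.87 (edgeR adjusted p = 0.0113). Its partner for clients of a later folding stage, HSP90B1 or GRP94, was at 521 and 502 CPM in NC, 555 and 631 under si-circ235-1, and 297 and 377 under si-circ235-2. Both si-circ235-2 libraries were below NC, and HSP90B1 fell with a log2 fold change of −0.60 (standard error 0.20, edgeR adjusted p = 0.0449), while it was 0.21 (standard error 0.20, edgeR adjusted p = 0.555) under si-circ235-1. These chaperone genes therefore stood on opposite sides of NC under si-circ235-2.

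DNAJC3 (p58IPK), a cochaperone of BiP, had 16.1 and 18.3 CPM in NC, 30.8 and 33.6 under si-circ235-1, and 24.2 and 28.2 under si-circ235-2. It rose 1.87-fold under si-circ235-1, 0.90 (standard error 0.21, edgeR adjusted p = 0.0362) on the log2 scale, and both si-circ235-2 libraries were also above NC, at 0.60 (standard error 0.21, edgeR adjusted p = 0.0502). DNAJB9 (ERdj4), another J-domain cochaperone and a known target of XBP1, was at 18.7 and 23.7 CPM in NC, 38.5 and 37.1 under si-circ235-1, and 19.1 and 23.6 under si-circ235-2. Here the si-circ235-1 libraries were above NC and those of si-circ235-2 overlapped NC, with log2 fold changes of 0.83 (standard error 0.22, edgeR adjusted p = 0.0517) and 0.01 (standard error 0.22, edgeR adjusted p = 0.974). Other settings called DNAJB9 higher under si-circ235-1, among them DESeq2 at 0.86 on the log2 scale (DESeq2 adjusted p = 0.00932) and the length-corrected fit at 0.80 (edgeR adjusted p = 0.0158). Under si-circ235-2 DNAJC3 was called by DESeq2, at 0.59 on the log2 scale (DESeq2 adjusted p = 0.0381). On library totals alone the DNAJC3 call under si-circ235-1 was lost. The counts carry no strand, and DNAJB9 shares exon bases with THAP5 and PNPLA8 on the opposite strand. The call of DNAJC3 was lost without NC replicate 1 (edgeR adjusted p = 0.168), NC replicate 2 (0.104), si-circ235-1 replicate 1 (0.0797) or replicate 2 (0.229).

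SDF2L1, a small ER protein that keeps BiP clients soluble, was the ER gene with the lowest log2 fold change under si-circ235-2. Its values were 154 and 83.8 CPM in NC, 126 and 168 under si-circ235-1, and 51.7 and 48.2 under si-circ235-2. The NC libraries were themselves far apart, both si-circ235-2 libraries were below them, and SDF2L1 fell to a log2 fold change of −1.25 (standard error 0.27, edgeR adjusted p = 0.00726). CRELD2, a secreted ER stress protein, stood at 88.1 and 66.9 CPM in NC, 90.0 and 95.1 under si-circ235-1, and 53.1 and 46.4 under si-circ235-2 and fell to −0.64 on the log2 scale (standard error 0.20, edgeR adjusted p = 0.0299) under si-circ235-2. MANF, a secreted cofactor of BiP, had the same order of libraries with 75.4 and 49.9 CPM in NC, 86.5 and 85.0 under si-circ235-1, and 45.2 and 37.6 under si-circ235-2, and its log2 fold change of −0.60 (standard error 0.22, edgeR adjusted p = 0.0619) did not pass. MANF was called lower by DESeq2, at −0.61 on the log2 scale (DESeq2 adjusted p = 0.0486), with no filter on low counts (edgeR adjusted p = 0.0386) and without NC replicate 2, at −0.85 (edgeR adjusted p = 0.0193). The means kept the order si-circ235-2, NC, si-circ235-1 from low to high for these genes, but the si-circ235-1 differences from NC were 0.30, 0.26 and 0.45 on the log2 scale and not called. SDF2L1 has a transcript of 865 nucleotides with a GC content of 65.5%. Its length-corrected value under si-circ235-2, with the trends of length and GC content both removed, was −0.21 on the log2 scale (edgeR adjusted p = 0.423). The parts of length and GC content in this value were not tested apart. HSP90B1 and CRELD2 were still called there, at −0.64 (edgeR adjusted p = 0.0122) and −0.51 (edgeR adjusted p = 0.0413). Without NC replicate 1 the edgeR adjusted p of the 3 that fell was 0.0823 for SDF2L1, 0.177 for HSP90B1 and 0.236 for CRELD2. CRELD2 was also not called without si-circ235-2 replicate 2 (0.162), and HSP90B1 lost its call whichever of the 6 libraries was left out (edgeR adjusted p from 0.0563 to 0.285), and on library totals alone the log2 fold changes of HSP90B1 and CRELD2 were −0.34 (edgeR adjusted p = 0.217) and −0.37 (edgeR adjusted p = 0.143).

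The other chaperone genes were not called in any comparison. DNAJB11, DNAJC10, HYOU1 and HSPA13 had log2 fold changes of −0.15 to 0.68 under si-circ235-1 and 0.02 to 0.48 under si-circ235-2. HSPA13 (STCH), an HSP70-type ATPase of the ER, was at 24.5 CPM in si-circ235-2 replicate 1 and 75.0 in replicate 2, on either side of NC (46.4 and 50.4). Its log2 fold change of 0.04 became −0.98 (edgeR adjusted p = 0.0153) without si-circ235-2 replicate 2.

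Among the 4 disulfide isomerases, which form and reshuffle disulfide bonds in folding proteins, 0 were called under either siRNA by edgeR or DESeq2, and 0 had an unadjusted p under 0.05. By edgeR, 5.88% and 31.4% of all tested genes were called under si-circ235-1 and si-circ235-2. PDIA3, PDIA4, PDIA6 and P4HB had log2 fold changes of −0.03 to 0.08 under si-circ235-1 and −0.09 to 0.59 under si-circ235-2. In each of the 4, and in CALR and HYOU1, si-circ235-1 replicate 1 was above both NC libraries and replicate 2 below both, as for P4HB with 282 and 343 CPM in NC, 422 and 239 under si-circ235-1, and 422 and 401 under si-circ235-2. The si-circ235-1 libraries of these 6 genes (18.2% of the 33) thus stood on both sides of NC, beside 9.55% of all tested genes. In the length-corrected fit P4HB was called higher under si-circ235-2 at 0.71 on the log2 scale (edgeR adjusted p = 0.0380), and with no filter on low counts PDIA6 was, at 0.58 (edgeR adjusted p = 0.0437).

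Of the lectin chaperones, which hold glycoproteins in the ER until they are folded, the membrane-bound CANX rose under si-circ235-2 and the soluble CALR was not called. CANX (calnexin, chr5:179678628-179730925, plus strand) was at 263 and 334 CPM in NC, 346 and 338 under si-circ235-1, and 543 and 542 under si-circ235-2. The si-circ235-2 libraries agreed closely and were above both NC libraries, a 1.81-fold rise with a log2 fold change of 0.86 (standard error 0.20, edgeR adjusted p = 0.00912), and under si-circ235-1 it was 0.19 (standard error 0.20, edgeR adjusted p = 0.583). CALR (calreticulin) measured 204 and 209 CPM in NC, 237 and 138 under si-circ235-1, and 267 and 219.6 under si-circ235-2, with log2 fold changes of −0.14 (standard error 0.25, edgeR adjusted p = 0.768) and 0.23 (standard error 0.25, edgeR adjusted p = 0.499). The length-corrected CANX value was still called at 0.56 on the log2 scale (edgeR adjusted p = 0.0199), and without NC replicate 1 it was 0.69 (edgeR adjusted p = 0.0992).

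The 6 genes of ER-associated degradation included 2 that rose under each siRNA, with different genes for each. The 2 of 6 are 33.3%, beside 2.24% and 15.7% of all tested genes called higher under si-circ235-1 and si-circ235-2. EDEM1 (chr3:5187646-5219957, plus strand), a lectin that hands misfolded glycoproteins on for degradation and a known XBP1 target, was at 26.7 and 31.7 CPM in NC, 46.6 and 35.2 under si-circ235-1, and 82.5 and 81.5 under si-circ235-2. Both si-circ235-2 libraries exceeded every other library, and EDEM1 rose 2.81-fold, with a log2 fold change of 1.49 (standard error 0.21, edgeR adjusted p = 0.00187). Under si-circ235-1 both libraries were above NC too, at 0.48 on the log2 scale (standard error 0.20, edgeR adjusted p = 0.170). EDEM1 was the 1 gene of the 13 called under si-circ235-2 that kept its call in all 14 alternative settings, with log2 fold changes from 0.82 (length-corrected) to 1.74 (library totals alone). SEL1L, the scaffold of the HRD1 ubiquitin ligase, had 24.8 and 31.5 CPM in NC, 24.1 and 23.8 under si-circ235-1, and 43.8 and 56.9 under si-circ235-2. It rose by 0.84 on the log2 scale (standard error 0.22, edgeR adjusted p = 0.0153) under si-circ235-2, where its libraries were above NC, against −0.23 (standard error 0.22, edgeR adjusted p = 0.552) under si-circ235-1. The si-circ235-2 value was 0.67 on the log2 scale (edgeR adjusted p = 0.150) when NC replicate 1 was left out, 0.64 (edgeR adjusted p = 0.0810) when si-circ235-2 replicate 2 was, and 0.47 (edgeR adjusted p = 0.0529) in the length-corrected fit. The transcripts of EDEM1 and SEL1L are 6146 and 7925 nucleotides long.

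HERPUD1 (chr16:56932048-56944863, plus strand), a ubiquitin-like membrane protein of the same ligase complex whose gene is induced by ER stress, was at 79.8 and 90.3 CPM in NC, 144 and 149.7 under si-circ235-1, and 114 and 89.7 under si-circ235-2. The si-circ235-1 libraries were above all others, and HERPUD1 rose 1.73-fold, 0.79 (standard error 0.19, edgeR adjusted p = 0.0377) on the log2 scale, against 0.26 (standard error 0.19, edgeR adjusted p = 0.312) under si-circ235-2. The HERPUD1 call under si-circ235-1 was lost on library totals alone. DERL2, a derlin of the channel through which substrates leave the ER, measured 81.3 and 74.0 CPM in NC, 126 and 140.4 under si-circ235-1, and 62.0 and 56.0 under si-circ235-2. It rose by 0.78 on the log2 scale (standard error 0.18, edgeR adjusted p = 0.0316) under si-circ235-1, whereas both si-circ235-2 libraries were below NC at −0.40 (standard error 0.18, edgeR adjusted p = 0.109). DERL2 shares exon bases with MIS12 on the opposite strand. With NC replicate 1, NC replicate 2 and the first and second si-circ235-1 library left out in turn, the edgeR adjusted p under si-circ235-1 was 0.162, 0.101, 0.0870 and 0.228 for HERPUD1 and 0.100, 0.129, 0.0667 and 0.225 for DERL2. SYVN1, the HRD1 ligase itself, and DERL1 were not called, with log2 fold changes of −0.41 and 0.23 under si-circ235-1 and −0.22 and −0.04 under si-circ235-2. DERL1 was called lower in the length-corrected fit, at −0.58 on the log2 scale (edgeR adjusted p = 0.0259) under si-circ235-2 and −0.74 (edgeR adjusted p = 0.00533) between the siRNAs. Exons of SYVN1 overlap FAU, which had 764% of its counts, on the same strand, so the reads of SYVN1 are uncertain.

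Of the 4 genes of translocation and transport, 2 fell under si-circ235-2 and 0 were called under si-circ235-1 (edgeR and DESeq2), where 2 passed an unadjusted p under 0.05, SSR1 above NC and SEC24D below. Of all tested genes 15.7% were called lower under si-circ235-2 and 5.88% in either direction under si-circ235-1. SEC61B (chr9:99222064-99230615, plus strand), the small beta subunit of the channel that new proteins enter the ER through, was at 163 and 128 CPM in NC, 154 and 190.1 under si-circ235-1, and 77.6 and 64.9 under si-circ235-2. The si-circ235-2 libraries were below all others, and SEC61B fell to 0.489 of its NC level, a log2 fold change of −1.03 (standard error 0.20, edgeR adjusted p = 0.00507). SSR1 (TRAP-alpha), which assists the channel, stood at 95.4 and 95.8 CPM in NC, 120.1 and 147 under si-circ235-1, and 46.7 and 65.6 under si-circ235-2. It fell to a log2 fold change of −0.77 (standard error 0.21, edgeR adjusted p = 0.0189) under si-circ235-2, with the si-circ235-1 libraries above NC at 0.48 (standard error 0.21, edgeR adjusted p = 0.175). SSR1 is 9669 nucleotides long in the annotation and SEC61B 687, so the 2 that fell lie at opposite ends of the length range. In the length-corrected fit both were still called lower, at −1.31 on the log2 scale (edgeR adjusted p = 0.00276) and −0.83 (edgeR adjusted p = 0.00485). On library totals alone SEC61B kept its call and SSR1 lost it. Without NC replicate 1 SSR1 and SEC61B were −0.78 and −0.85 on the log2 scale, and SSR1 was −0.55 without si-circ235-2 replicate 1. SEC61A1, the pore of the channel, had log2 fold changes of 0.13 and −0.31. SEC61A1 was called lower in the length-corrected fit, at −0.47 on the log2 scale (edgeR adjusted p = 0.0482) under si-circ235-2 and −0.82 (edgeR adjusted p = 0.00322) between the siRNAs. SEC24D, a coat protein that selects cargo for the vesicles leaving the ER, measured 12.1 and 13.2 CPM in NC, 7.97 and 7.98 under si-circ235-1, and 19.4 and 19.0 under si-circ235-2, with −0.66 on the log2 scale (standard error 0.23, edgeR adjusted p = 0.103) under si-circ235-1 and 0.60 (standard error 0.22, edgeR adjusted p = 0.0615) under si-circ235-2. It was called lower under si-circ235-1 in the length-corrected fit, at −0.65 on the log2 scale (edgeR adjusted p = 0.0432), and higher under si-circ235-2 on library totals alone, at 0.85 (edgeR adjusted p = 0.0266).

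**Figure D4:**
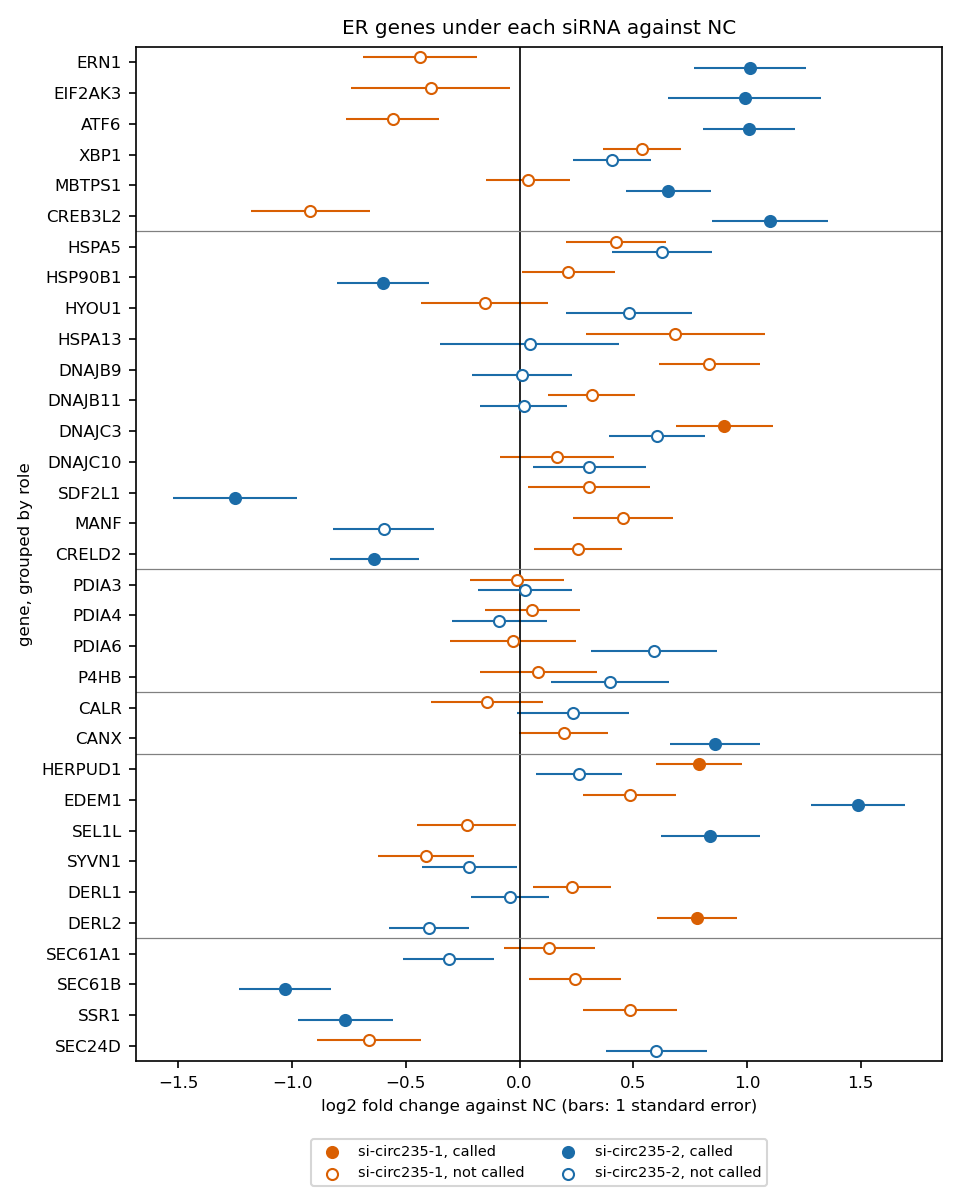
Log2 fold change against NC of each of the 33 ER genes under si-circ235-1 and si-circ235-2 (TMM, edgeR), with bars of 1 standard error, grouped by role and with genes called at an adjusted p under 0.05 shown filled. ERN1, EIF2AK3, ATF6 and CREB3L2 lie to the right of 0 under si-circ235-2 and to the left of it under si-circ235-1, and the disulfide isomerases stay within 0.60 of 0 under both siRNAs.

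The siRNAs were also compared with each other, without NC. Between si-circ235-2 and si-circ235-1, 18 of the 33 genes (54.5%) were called, 9 higher and 9 lower under si-circ235-2, beside 39.7% of all tested genes, 21.1% higher and 18.6% lower. Both si-circ235-2 libraries were above both si-circ235-1 libraries for 11 genes (38.4% of all genes) and below for 14 (33.7% of all). The 9 higher were ERN1, EIF2AK3, ATF6, MBTPS1, CREB3L2, EDEM1, SEL1L, CANX and SEC24D, and the 9 lower were HSP90B1, DNAJB9, SDF2L1, CRELD2, MANF, HERPUD1, DERL2, SEC61B and SSR1. By role, 5 of the 6 sensors and signal factors were higher (median 1.42), and 5 of the 11 chaperones (median −0.64) and 2 of the 4 translocation genes were lower. CREB3L2 was 4.05-fold higher under si-circ235-2 than under si-circ235-1, with a log2 difference of 2.02 (standard error 0.27, edgeR adjusted p = 0.000654). The difference was 1.57 on the log2 scale (standard error 0.21, edgeR adjusted p = 0.000668) for ATF6, 1.45 (standard error 0.25, edgeR adjusted p = 0.00165) for ERN1 and 1.38 (standard error 0.34, edgeR adjusted p = 0.00939) for EIF2AK3. Among the lower genes, SDF2L1 had a log2 difference of −1.56 (standard error 0.27, edgeR adjusted p = 0.00178) and DERL2 of −1.18 (standard error 0.18, edgeR adjusted p = 0.00102). XBP1 and HSPA5, above NC under each siRNA, differed between them by −0.13 on the log2 scale (standard error 0.17, edgeR adjusted p = 0.563) and 0.20 (standard error 0.22, edgeR adjusted p = 0.493).

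The length-corrected fit again called 18 genes between the siRNAs, 15 of them the same, 6 higher and 12 lower. ATF6, ERN1 and CREB3L2 were still higher under si-circ235-2, at 1.19 on the log2 scale (edgeR adjusted p = 0.00259), 0.76 (edgeR adjusted p = 0.0137) and 1.30 (edgeR adjusted p = 0.00140), and EIF2AK3 was at 0.87 (edgeR adjusted p = 0.0525). On library totals alone 12 were higher and 6 lower, beside a median of 0.37 over all genes. For these fits too the share of all tested genes called is not given here. Of the 18 calls, 11 held in all 14 alternative settings, those of ATF6, CREB3L2, CRELD2, DERL2, ERN1, MANF, SDF2L1, SEC24D, SEC61B, SEL1L and SSR1. The count was 12 without si-circ235-1 replicate 2, 14 and 15 on dropping the first or second si-circ235-2 library and 18 without any other single library.

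The 7 genes with the ER stress response element shown above had a median log2 fold change of 0.21 (−0.14 to 0.54) under si-circ235-1, with 0 called by edgeR, and of 0.40 (−0.64 to 0.86) under si-circ235-2, where CANX rose and HSP90B1 and CRELD2 fell. The 23 whose promoters were searched without an exact match had medians of 0.16 and 0.26, and 7 rose and 3 fell under si-circ235-2. The 3 genes without a promoter in the table were left out. Genes that share the element, such as HSPA5 and HSP90B1, thus lay on both sides of NC under si-circ235-2.

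Other genes of the same pathways were counted from 6 lists, of which 125 genes were tested. Of the 20 genes of oxidative folding, 3 rose and 0 fell under si-circ235-1, and 3 rose and 4 fell under si-circ235-2. ERO1A, the oxidase that recharges the disulfide isomerases and a gene also induced by hypoxia, was at 42.6 and 52.1 CPM in NC, 112 and 137 under si-circ235-1, and 111 and 110.2 under si-circ235-2. All libraries of both siRNAs were above NC, with log2 fold changes of 1.39 (standard error 0.19, edgeR adjusted p = 0.00747) and 1.22 (standard error 0.19, edgeR adjusted p = 0.00261). PRDX4, an ER peroxiredoxin, rose by 1.22 on the log2 scale (standard error 0.22, edgeR adjusted p = 0.0151) under si-circ235-1, and FKBP2, a prolyl isomerase, fell with −2.42 (standard error 0.37, edgeR adjusted p = 0.00241) under si-circ235-2. Length-corrected, FKBP2 was −1.45 on the log2 scale (edgeR adjusted p = 0.00556) and ERO1A 1.07 (edgeR adjusted p = 0.00516) under si-circ235-2.

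PERK shares the integrated stress response with other eIF2α kinases, of which EIF2AK1, EIF2AK2 and EIF2AK4 are in its list. Of the 23 genes of this response, 0 rose and 1 fell under si-circ235-1, and 4 rose and 4 fell under si-circ235-2. ATF4, its main transcription factor, measured 762 and 674 CPM in NC, 604 and 503 under si-circ235-1, and 557 and 456 under si-circ235-2, with log2 fold changes of −0.37 (standard error 0.21, edgeR adjusted p = 0.299) and −0.50 (standard error 0.21, edgeR adjusted p = 0.0932). Its target DDIT3 (CHOP), which promotes death under lasting stress, was at 34.1 and 22.6 CPM in NC, 37.4 and 43.1 under si-circ235-1, and 22.2 and 22.9 under si-circ235-2 and was not called. The siRNAs gave log2 fold changes of 0.51 (standard error 0.23, edgeR adjusted p = 0.205) and −0.33 (standard error 0.23, edgeR adjusted p = 0.313) for DDIT3. CHAC1, a glutathione-degrading enzyme induced by ATF4, fell with −1.18 on the log2 scale (standard error 0.26, edgeR adjusted p = 0.0277) under si-circ235-1 and −1.32 (standard error 0.26, edgeR adjusted p = 0.00474) under si-circ235-2, and the amino acid transporter SLC7A5 had −0.93 (standard error 0.26, edgeR adjusted p = 0.0631) under si-circ235-1. Under si-circ235-2 the stress protein NUPR1 fell with −2.68 on the log2 scale (standard error 0.35, edgeR adjusted p = 0.00179) and the amino acid sensor kinase EIF2AK4 (GCN2) rose by 1.05 (standard error 0.19, edgeR adjusted p = 0.00387). The length-corrected values under si-circ235-2 were −0.63 on the log2 scale (edgeR adjusted p = 0.0221) for CHAC1, −3.24 (edgeR adjusted p = 0.00309) for NUPR1 and 0.42 (edgeR adjusted p = 0.0421) for EIF2AK4. EIF2AK4, at 0.88 on the log2 scale (edgeR adjusted p = 0.0530), and CHAC1, at −1.02 (edgeR adjusted p = 0.0660), lost their calls there without NC replicate 1.

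Of the 28 tested genes of translocation and N-glycosylation, 1 rose and 1 fell under si-circ235-1, and 4 rose and 7 fell under si-circ235-2. SSR4, a TRAP subunit like SSR1, fell with −1.61 on the log2 scale (standard error 0.27, edgeR adjusted p = 0.00303) and UGGT1, the glucosyltransferase that senses unfolded glycoproteins, rose by 0.97 (standard error 0.18, edgeR adjusted p = 0.00384) under si-circ235-2. SSR3 rose by 0.75 on the log2 scale (standard error 0.20, edgeR adjusted p = 0.0479) and the glucosidase MOGS fell with −1.12 (standard error 0.23, edgeR adjusted p = 0.0231) under si-circ235-1. Of the 18 genes of COPII vesicles and cargo receptors, 1 rose and 0 fell under si-circ235-1 and 5 rose and 1 fell under si-circ235-2. SAR1A, the GTPase that starts the coat, rose by 1.10 on the log2 scale (standard error 0.19, edgeR adjusted p = 0.0143) under si-circ235-1. The outer coat gene SEC31A rose by 0.87 on the log2 scale (standard error 0.20, edgeR adjusted p = 0.00822) under si-circ235-2. SEC24C, a cargo adaptor like SEC24D, rose by 2.19 on the log2 scale (standard error 0.46, edgeR adjusted p = 0.00664) under si-circ235-2 and had −1.67 (standard error 0.50, edgeR adjusted p = 0.0720) under si-circ235-1. In the length-corrected fit UGGT1, at 0.17 on the log2 scale (edgeR adjusted p = 0.371), and SEC31A, at 0.36 (edgeR adjusted p = 0.0983), lost their calls under si-circ235-2, while SSR4, at −1.13, and SEC24C, at 1.85 (edgeR adjusted p = 0.0151), were still called. SEC31A was 0.68 on the log2 scale (edgeR adjusted p = 0.0922) and SEC24C 1.59 (edgeR adjusted p = 0.0594) without NC replicate 1, and neither was called.

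Of 22 further degradation genes, 0 rose and 2 fell under si-circ235-1, BAG6 with −0.85 on the log2 scale (standard error 0.20, edgeR adjusted p = 0.0356) and the ubiquitin-conjugating enzyme UBE2G2 with −0.71 (standard error 0.18, edgeR adjusted p = 0.0431). Under si-circ235-2, 2 rose and 4 fell, and the lowest p-values were those of AUP1, at −0.95 on the log2 scale (standard error 0.20, edgeR adjusted p = 0.00663), and SELENOS, at −0.89 (standard error 0.21, edgeR adjusted p = 0.0106), both partners of the ligase complexes. Of 14 other signal genes, 0 rose and 2 fell under si-circ235-1 and 1 rose and 3 fell under si-circ235-2. ATF6B, the paralogue of ATF6, fell with −1.97 on the log2 scale (standard error 0.38, edgeR adjusted p = 0.0174) under si-circ235-1, and under si-circ235-2 both libraries were above NC at 0.90 (standard error 0.35, edgeR adjusted p = 0.0718). The apoptosis effector BAX fell with −0.97 on the log2 scale (standard error 0.21, edgeR adjusted p = 0.0268) under si-circ235-1 and −0.85 (standard error 0.21, edgeR adjusted p = 0.0117) under si-circ235-2, and MAP3K5 (ASK1), a kinase downstream of IRE1, rose by 0.87 (standard error 0.23, edgeR adjusted p = 0.0161) under si-circ235-2. In the fit corrected for length AUP1, at −0.37 on the log2 scale (edgeR adjusted p = 0.0789), BAX, at −0.25 (edgeR adjusted p = 0.166), and MAP3K5, at 0.25 (edgeR adjusted p = 0.269), lost their calls under si-circ235-2, SELENOS was −1.01 (edgeR adjusted p = 0.00666), and ATF6B was called higher at 1.15 (edgeR adjusted p = 0.0352). Without NC replicate 1 the edgeR adjusted p there was 0.0701 for AUP1, 0.125 for SELENOS, 0.119 for BAX and 0.164 for MAP3K5, and BAX was also lost without si-circ235-2 replicate 2 (0.0813). The shares called in these lists, 4.35% to 15% under si-circ235-1 and 27.3% to 39.3% under si-circ235-2, stand beside the 5.88% and 31.4% of all genes.

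Over the 125 genes of these lists, edgeR called 5 higher and 6 lower under si-circ235-1, where 25 and 17 passed at an unadjusted p under 0.05 and 16 and 9 by DESeq2. Of the lists with 0 genes called in a direction there, DESeq2 also called 0 for COPII lower, oxidative folding lower, integrated stress response higher and degradation higher, and 1 for the other signal genes higher (3, 2, 3, 1 and 2 at an unadjusted p under 0.05 by edgeR). Under si-circ235-2 it was 19 higher and 23 lower, which became 18 and 21 in the length-corrected fit, with 23 of the 42 calls kept, and 36 and 12 on library totals alone. Without NC replicate 1, 6 of the 42 calls under si-circ235-2 and 1 of the 11 under si-circ235-1 remained. The lists had 2 calls under si-circ235-1 when NC replicate 2 was left out, 8 when si-circ235-1 replicate 1 was and 0 when its replicate 2 was, and 27 under si-circ235-2 when replicate 2 of that siRNA was left out. ERO1A, FKBP2, NUPR1 and SSR4 were called under si-circ235-2 with each library left out and in the length-corrected fit, while ERO1A under si-circ235-1 was 1.25 on the log2 scale (edgeR adjusted p = 0.0578) without NC replicate 1 and 1.24 (edgeR adjusted p = 0.144) without si-circ235-1 replicate 2. Of the 10 named list genes called under si-circ235-1, all were called in the length-corrected fit, but 1, ATF6B, was called without NC replicate 1 (edgeR adjusted p of the others 0.0578 to 0.161), 1, ERO1A, without NC replicate 2 (0.0503 to 0.198), 5 without si-circ235-1 replicate 1 and 0 without its replicate 2 (0.144 to 0.302).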

How the data were processed

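Raw gene counts, as whole numbers, were deposited by the authors for 6 poly(A) RNA-seq libraries made without strand information. The submitters' processing notes name FastQC, cutadapt, STAR and the genome build hg38, without roles. The sources used here name neither the counting tool nor its annotation. Symbols and coordinates came from GENCODE release 29 (GRCh38), in which 99.5% of the identifiers were found, and promoters from RefSeq. No protein sequences were used here.

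Groups came from the sample labels. The test was that of edgeR 4.0.16 under R 4.3.3 (filterByExpr with a count minimum of 10, TMM, quasi-likelihood test with 1 mean per condition over all 6 libraries, two-sided, Benjamini-Hochberg over 14415 genes, threshold 0.05), whose p-values use a spread shared among the conditions. Alternatives were DESeq2 1.42.0, other scalings, no filter, fits of 2 conditions alone, a replicate block, a spline trend (5 degrees of freedom) over length and GC content removed from each library, a threshold of 0.01, and each library left out. The edgeR step was tested on simulated data. Replicates differed by more than sampling noise (chi-square per degree of freedom 23.4 to 34.9). The 33 genes and 6 pathway lists were chosen with earlier results of these data known. Values per library are given for genes called in any comparison and for XBP1, HSPA5, ERN1, EIF2AK3 and ATF6, others by range, plus a few genes named after their values were seen. From each pathway list the 2 genes of lowest p per siRNA are named, and ATF4 and DDIT3 always.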

Additional observations from a re-analysis of the deposited data

Results flagged for a closer look

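For 11 of the 33 genes (33.3%, beside 15.1% of all tested genes) the libraries of the 2 siRNAs lay on opposite sides of NC without overlap, and edgeR called the difference between the siRNAs. Of these, 6 were below NC under si-circ235-1 and above it under si-circ235-2 (18.2%, beside 8.73% of all genes). The log2 difference between si-circ235-2 and si-circ235-1 was 2.02 for CREB3L2, 1.57 for ATF6, 1.45 for ERN1, 1.38 for EIF2AK3, 1.26 for SEC24D and 1.07 for SEL1L. The other 5 were above NC under si-circ235-1 and below it under si-circ235-2 (15.2%, beside 6.34% of all genes), with log2 differences of −1.25 for SSR1, −1.18 for DERL2, −1.05 for MANF, −0.90 for CRELD2 and −0.82 for HSP90B1. Against NC, edgeR called 0 of the 33 genes under both siRNAs. How many of all tested genes had both calls is not given here, so this count says nothing particular to the ER genes. Of the 11, MANF and SEC24D were called against NC under neither siRNA, and DERL2 alone was called under si-circ235-1. The length of the transcript went with the log2 difference between the siRNAs, with a Spearman's rho of 0.355 over 14386 genes and 0.503 over the 33. Its part in these 11 results was not tested further.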

How the results depend on the processing

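Under si-circ235-1, 3 ER genes were called. The count was 6 with DESeq2, 1 without TMM factors, 6 with no filter on low counts, 6 with 2 conditions alone, 7 in the length-corrected fit (5 when the replicate block was added to it), 0 at an adjusted p under 0.01, and 0 to 6 with 1 library left out. Under si-circ235-2, 13 were called, and 7 in the length-corrected fit with the replicate block, 6 at an adjusted p under 0.01 and 1 to 12 with 1 library left out, the 1 being without NC replicate 1. The count of 18 between the siRNAs stayed at 12 to 20 throughout. Apart from the fit without NC replicate 1, the shares of all tested genes called in these settings are not given here. The changes in count therefore cannot be read as particular to the ER genes. Calls among the 125 tested list genes under si-circ235-1 moved too, from 11 to 25 with DESeq2 and 30 in the length-corrected fit. They were 24 with no filter, 23 with 2 conditions alone, 11 without TMM factors and 1 at an adjusted p under 0.01. Without TMM factors the median log2 fold changes of the ER genes were 0.10 under si-circ235-1, 0.51 under si-circ235-2 and 0.36 between the siRNAs. In the length-corrected fit they were 0.12 under si-circ235-2 and −0.23 between the siRNAs, and with the replicate block 0.12 and −0.24. Over single libraries left out, they ranged from 0.21 to 0.37 under si-circ235-2 and from −0.12 to 0.11 between the siRNAs. HSPA13 under si-circ235-2 ranged from −0.98 to 0.63 (log2) on leaving out either si-circ235-2 library. The replicate block gave 4, 16 and 19 calls in the 3 comparisons, adding DNAJB9, then HSPA5, DNAJC3 and MANF, then SEC61A1, and the replicate numbers did not pair the libraries (correlations of same-numbered deviations −0.094 to 0.149). Of 1386 alternative values for single genes, 1235 kept direction and side of the threshold, 89 lost a call, 61 gained one and 1 reversed. Calls that held in all 14 alternatives numbered 0 of 3, 1 of 13 and 11 of 18. The causes of these changes were not tested. The least counted of the 33 genes, EIF2AK3, had 50 to 267 reads in a library, and there were 2 libraries per siRNA. Which of these limits its precision more was not tested.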
